A study of Mus musculus with 67 samples.

Results

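The genes described here are 8 response genes of bone morphogenetic protein (BMP) signalling, *Msx1*, *Msx2*, *Id1*, *Id2*, *Id3*, *Id4*, *Smad6* and *Smad7*. They were picked by gene symbol, with earlier results of these data known, and each matched 1 of the 46983 gene IDs in the deposited tables. The libraries were made from 14 pools of forelimb buds of the mouse, and compare wild-type (WT) limb buds with buds lacking *Gli3*, which encodes a repressor of Hedgehog (HH) target genes, before and after the start of HH signalling. The 2 groups at E9.25 (21 to 23 somites, before HH signalling) were whole forelimb buds, about 4 pairs per pool, with 3 WT and 4 *Gli3*-/- libraries. The 2 groups at E10.5 (32 to 35 somites, after its start) were anterior forelimb buds, 2 pairs per pool by the labels, with 4 WT and 3 *Gli3*-/- libraries. All groups were on a Swiss Webster background, and the *Gli3*-/- embryos carried the Xt-J allele of *Gli3*, so that *Gli3* function was lost in every tissue and not in the limb alone. The study's methods instead give about 4 pairs, or 3 to 4 embryos, per pool at both stages, so that the size of the E10.5 pools is not certain. Because each library pooled buds of several embryos, the spread between libraries is a spread between pools. Stage and dissection changed together, so that a difference between E9.25 and E10.5 cannot be told apart from a difference between whole and anterior buds.

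BMP ligands bind paired type I and type II receptors, which phosphorylate SMAD1, SMAD5 and SMAD9, and these enter the nucleus with SMAD4 and switch on target genes. The 3 families here are among its best known targets. MSX1 and MSX2 are homeodomain repressors, with *Msx2* expressed strongly in the anterior limb mesenchyme and below the apical ridge. ID1 to ID4 are helix-loop-helix proteins that cannot bind DNA and that hold E proteins away from it. SMAD6 and SMAD7 are inhibitory SMADs that block the receptors and close a negative feedback loop, SMAD6 mainly on BMP signals and SMAD7 also on TGF-beta and activin signals.

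Levels are given as TPM, the share of a library's transcripts taken by a gene, which are scaled for gene length, and a TPM of 1 equalled 20.7 to 29.3 reads per kilobase in these libraries. Depth was estimated at 38.1 to 56.8 M reads per library. Differences are on the log2(TPM + 1) scale and were tested with limma over all genes that reached a TPM of 1 in 3 or more of the compared libraries, and a gene was called where its Benjamini-Hochberg adjusted p was under 0.05. The *Gli3* transcript was measured first, as a check of the labels. At E10.5 it was at 73.4 to 89.7 TPM in WT and 38.7 to 40.9 TPM in *Gli3*-/-. At E9.25 it was at 44.2, 15.8 and 44.6 TPM in WT and at 14.3 to 20.8 TPM in *Gli3*-/-, so that the library labelled E9.25 WT replicate 2 lay among the *Gli3*-/- libraries. That library also had the lowest depth (38.1 M reads) and the fewest genes at a TPM of 1 or more (13276). Its 6 flank and lateral plate mesoderm markers summed to 18.2 TPM, within the E9.25 WT range (13.2 to 32.3 TPM, against 61.1 to 139 TPM in *Gli3*-/-). The cause of its low *Gli3* value was not tested. The E9.25 differences of the 8 genes, and the counts over the gene lists that rest on E9.25 WT libraries, are therefore also given without that library. The Xt-J allele is a partial deletion, and the value of *Gli3* takes in reads from any part of the gene that is still transcribed, which limits this check. The limb label was borne out by *Prrx1*, *Prrx2*, *Tbx5*, *Fgf10* and *Twist1*, which were detected in every library and summed to 518 to 798 TPM.

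The promoter windows of 6 of the 8 genes were held in the RefSeq table used (GRCm38.p6): *Msx1*, *Msx2*, *Id2*, *Id3*, *Id4* and *Smad6*. They are described because SMAD complexes are known to bind GC-rich motifs and the short SMAD-binding element. In the 250 bases before each start, both strands were searched for the palindromic GC-rich motif GGCGCC. The other GC-rich motif searched was GGAGCC, which reads GGCTCC on the opposite strand. The SMAD-binding element was searched as CAGAC, which reads GTCTG on the opposite strand. No match overlapped another in these windows. The 3 windows shown belong to a gene that was lower in E10.5 *Gli3*-/- buds and held no match, a gene that was lower and held both GC-rich motifs, and a gene whose difference did not pass the test and that held 2 matches. Each reads 5′ to 3′ on the strand of its gene, with motif bases in capitals.
Msx1 (GRCm38.p6 chr5:37824586-37824835, minus strand): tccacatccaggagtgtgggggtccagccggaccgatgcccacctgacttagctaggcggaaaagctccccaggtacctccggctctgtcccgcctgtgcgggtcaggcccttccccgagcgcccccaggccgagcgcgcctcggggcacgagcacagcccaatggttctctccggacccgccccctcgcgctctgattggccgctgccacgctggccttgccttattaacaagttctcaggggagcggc
Id2 (GRCm38.p6 chr12:25096093-25096342, minus strand): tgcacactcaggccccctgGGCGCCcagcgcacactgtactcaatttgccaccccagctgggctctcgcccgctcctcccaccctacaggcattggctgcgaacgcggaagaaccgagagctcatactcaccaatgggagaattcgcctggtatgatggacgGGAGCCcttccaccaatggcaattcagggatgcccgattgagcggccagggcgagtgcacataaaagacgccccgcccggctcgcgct
Smad6 (GRCm38.p6 chr9:64022060-64022309, minus strand): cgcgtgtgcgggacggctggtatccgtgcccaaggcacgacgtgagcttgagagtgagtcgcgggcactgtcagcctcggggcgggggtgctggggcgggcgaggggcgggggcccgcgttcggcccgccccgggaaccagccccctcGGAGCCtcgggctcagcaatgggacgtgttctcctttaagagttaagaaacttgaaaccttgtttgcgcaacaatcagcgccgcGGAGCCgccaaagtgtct

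*Msx1* held none of the 3 motifs. *Id2* and *Id4* each held GGCGCC 1 time, a motif present in 9.54% of 27025 windows of the same length. GGAGCC was found 2 times in *Msx2* and *Smad6* and 1 time in *Id2*, *Id3* and *Id4*, and was present in 25.7% of all windows. CAGAC was found in *Id3* alone of the 6, 2 times, and was present in 42.1% of all windows. The 6 windows were GC-rich (61.6 to 75.6%, against a median of 52% over all windows). A match is a run of letters and not a measured binding site. The windows of *Msx2* and *Id3* lie within the gene spans of the deposited tables, which start further upstream, and are given by their counts.

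The genes lay on 7 chromosomes. In the coordinates of the deposited tables, *Msx1* (ENSMUSG00000048450.10) spans chr5:37820485-37824583 on the minus strand and *Msx2* (ENSMUSG00000021469.9) spans chr13:53466884-53473074 on the minus strand. The *Id* genes are compact: *Id1* (ENSMUSG00000042745.9) spans chr2:152736251-152737410, *Id2* (ENSMUSG00000020644.8) chr12:25093801-25096092, *Id3* (ENSMUSG00000007872.3) chr4:136143497-136145755 and *Id4* (ENSMUSG00000021379.1) chr13:48261427-48264036. *Smad6* (ENSMUSG00000036867.7) spans chr9:63953076-64022059 and *Smad7* (ENSMUSG00000025880.11) spans chr18:75367529-75395935. *Id4* is overlapped on the opposite strand by *A330033J07Rik*, which was at most at 0.085 TPM, and no other member overlaps a listed gene. *Msx1*, *Id1*, *Id2* and *Id3* rested on 1251 to 6336 reads per kilobase in every library, *Msx2*, *Smad6* and *Smad7* on 143 to 1414, and *Id4* on 14.3 to 96.6, so that *Id4* was measured with the least precision.

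In wild-type buds the genes fell into 5 levels that did not overlap, with the same genes in each level at both stages. At E9.25 *Msx1* (181 ± 20.9 TPM, SD, n = 3), *Id1* (178 ± 19.2) and *Id2* (173 ± 14.9) were highest, and their libraries overlapped. *Id3* followed at 108 ± 12.04 TPM and *Msx2* at 35.0 ± 1.85 TPM, each below the gene above it in every library. *Smad7* (11.996 ± 2.93 TPM) and *Smad6* (11.6 ± 2.40 TPM) overlapped each other, and *Id4* was lowest at 2.32 ± 0.270 TPM. At E10.5 in WT *Id2* (211 ± 24.0 TPM, SD, n = 4), *Msx1* (199 ± 26.7) and *Id1* (177 ± 12.9) again led with overlapping libraries. *Id3* (123 ± 20.2 TPM), *Msx2* (39.7 ± 5.32), *Smad7* (19.1 ± 2.42), *Smad6* (15.6 ± 2.23) and *Id4* (2.63 ± 1.11) followed in the same order, and of these neighbours *Smad7* and *Smad6* overlapped. In E10.5 *Gli3*-/- buds *Msx2* (7.53 ± 1.26 TPM, SD, n = 3) fell below *Smad7* (15.7 ± 1.71) and *Smad6* (13.5 ± 2.19) in every library, and *Msx1* (109 ± 9.33 TPM) lay above *Id1* (91.0 ± 6.23) with no overlap.

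**Figure D1:**
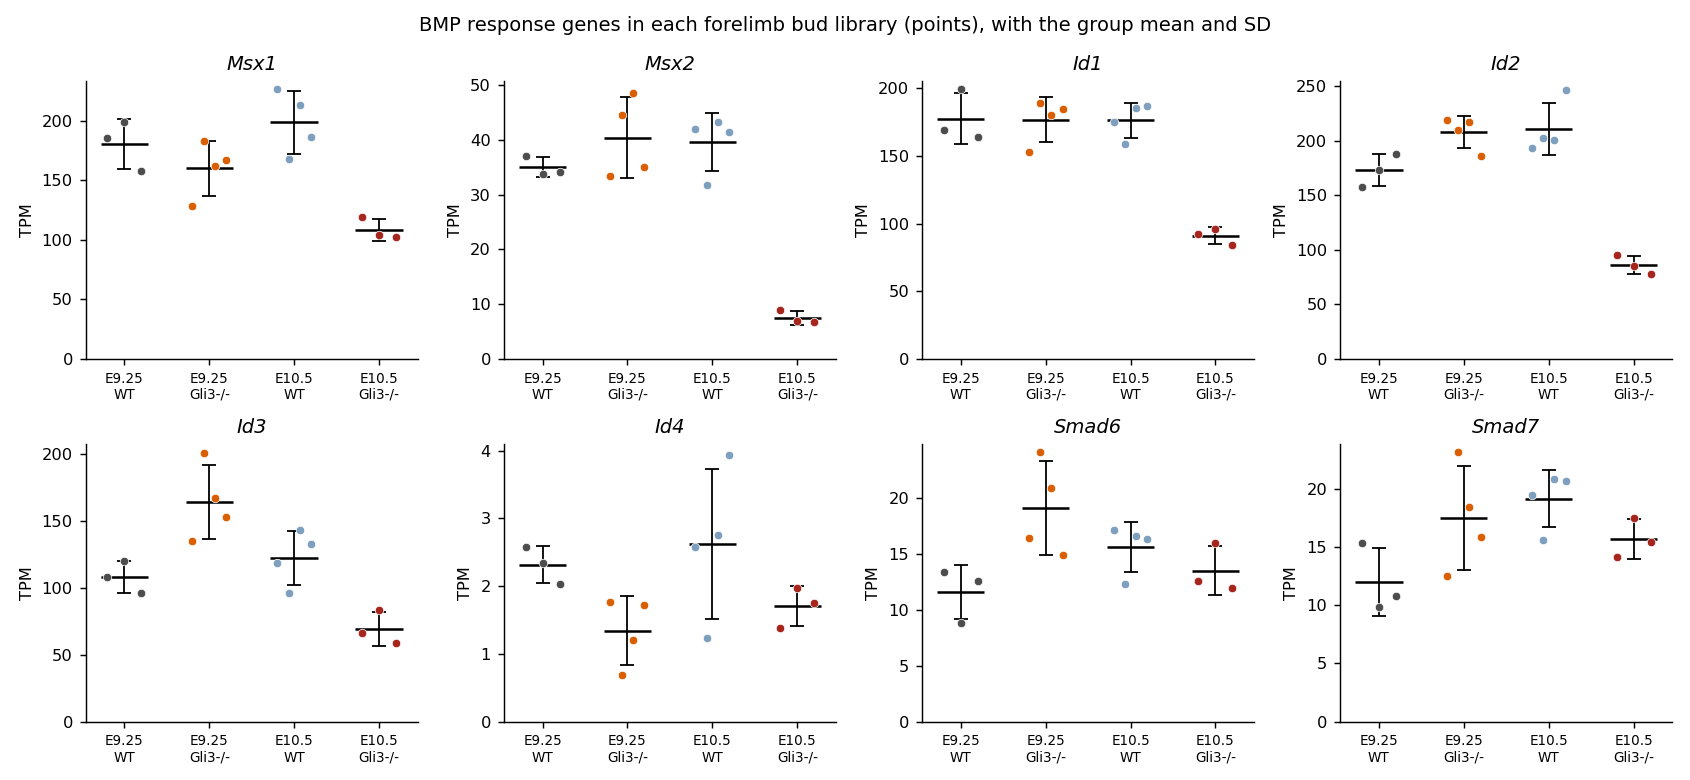
Each panel plots 1 gene in TPM (vertical axis, from 0) for the 14 libraries (points) in the 4 groups, with the group mean and SD as black bars. *Msx1*, *Msx2*, *Id1*, *Id2* and *Id3* have their lowest 3 values in E10.5 *Gli3*-/-, whereas *Id4*, *Smad6* and *Smad7* overlap between the E10.5 genotypes.

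At E10.5, after the start of HH signalling, both *Msx* genes and 3 of the 4 *Id* genes were lower in *Gli3*-/- than in WT anterior buds, by 1.75 to 4.77 times. *Msx2* fell most. *Smad6* and *Smad7*, the feedback inhibitors, did not pass the test and neither did *Id4*. In all, 5 of the 8 genes passed the test as lower and 0 as higher. Over the 15654 genes tested, 2.93% passed as lower. The libraries of the 2 genotypes did not overlap for the same 5 of 8 genes, against 19.3% of all genes tested. The median log2 difference was -0.83 over the 8 genes and -0.02 over all genes tested.

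*Msx2* was at 42.0, 31.8, 43.3 and 41.5 TPM in the WT libraries and at 8.98, 6.88 and 6.73 TPM in the *Gli3*-/- libraries. Even the lowest WT library, replicate 2, was more than 3 times the highest *Gli3*-/- library. The log2 difference was -2.25 (95% interval -2.55 to -1.95), a 4.77-fold decrease, with a limma adjusted p of 7.36e-05, and its unadjusted p ranked 6 among the 15654 genes tested. *Msx1* was at 227, 168, 214 and 186 TPM in WT and at 119, 104 and 102 TPM in *Gli3*-/-. It fell in the same direction but less, by 0.86 on the log2 scale (interval -1.10 to -0.61, limma adjusted p = 0.0027). *Msx2* was 16.7 ± 1.16% (SD, n = 4) of the summed *Msx* TPM in WT and 6.45 ± 0.473% (SD, n = 3) in *Gli3*-/-, and the ratio of *Msx1* to *Msx2* was 4.49 to 5.40 in WT and 13.3 to 15.2 in *Gli3*-/-. This ratio was examined after the values were seen and is given without a test.

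Among the *Id* genes *Id2*, which is expressed in limb mesenchyme and in many progenitor cells, had the largest difference. It was at 194, 203, 201 and 246 TPM in WT and at 95.03, 85.3 and 78.0 TPM in *Gli3*-/-. The log2 difference was -1.28 (interval -1.50 to -1.06, limma adjusted p = 0.000335). *Id1*, a canonical direct target of SMAD1 and SMAD5, was at 175, 159, 186 and 187 TPM in WT and at 92.7, 96.2 and 84.1 TPM in *Gli3*-/-. Its libraries were the tightest of the 8 genes in both E10.5 groups, and it fell by 0.95 on the log2 scale (interval -1.12 to -0.77, limma adjusted p = 0.000424). *Id3*, which often acts together with *Id1*, was at 119, 96.3, 143 and 133 TPM in WT and at 66.2, 83.5 and 58.9 TPM in *Gli3*-/-. The groups lay close to each other, with 96.3 TPM as the lowest WT and 83.5 TPM as the highest *Gli3*-/- library. The log2 difference was -0.81 (interval -1.15 to -0.47, limma adjusted p = 0.0166). Leaving out 1 library at a time ended the *Id3* call in 3 of 7 cases, with limma adjusted p of 0.0589 without WT replicate 4, 0.0564 without *Gli3*-/- replicate 1 and 0.0725 without *Gli3*-/- replicate 3 (0.00236 to 0.191 over all alternatives). The calls of *Msx1*, *Msx2*, *Id1* and *Id2* held in all 7 cases.

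*Id4* was low in every library, at 2.57, 1.24, 2.75 and 3.94 TPM in WT and 1.39, 1.97 and 1.75 TPM in *Gli3*-/-. Its groups overlapped and its log2 difference was -0.37 (interval -0.92 to 0.17, limma adjusted p = 0.445), a range that includes a fall as large as those of *Msx1* and *Id3*. *Smad6* was at 17.2, 12.3, 16.6 and 16.4 TPM in WT and at 12.5, 16.0 and 11.96 TPM in *Gli3*-/-. The groups overlapped, and the log2 difference was -0.19 (interval -0.51 to 0.12, limma adjusted p = 0.495). *Smad7* was at 19.5, 15.6, 20.8 and 20.7 TPM in WT and at 14.1, 17.5 and 15.4 TPM in *Gli3*-/-. Its log2 difference was -0.27 (interval -0.54 to 0.00121, limma adjusted p = 0.258). Over the 18 alternatives *Smad7* stayed lower and was called in 1, with limma adjusted p from 0.0452 to 0.724. *Smad6* also stayed lower and was called in 0, with limma adjusted p from 0.0839 to 0.833. The intervals of both inhibitory SMADs lay above those of *Msx1*, *Msx2*, *Id1* and *Id2* without overlap, and overlapped those of *Id3* and *Id4*. Differences between genes were not tested.

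**Figure D2:**
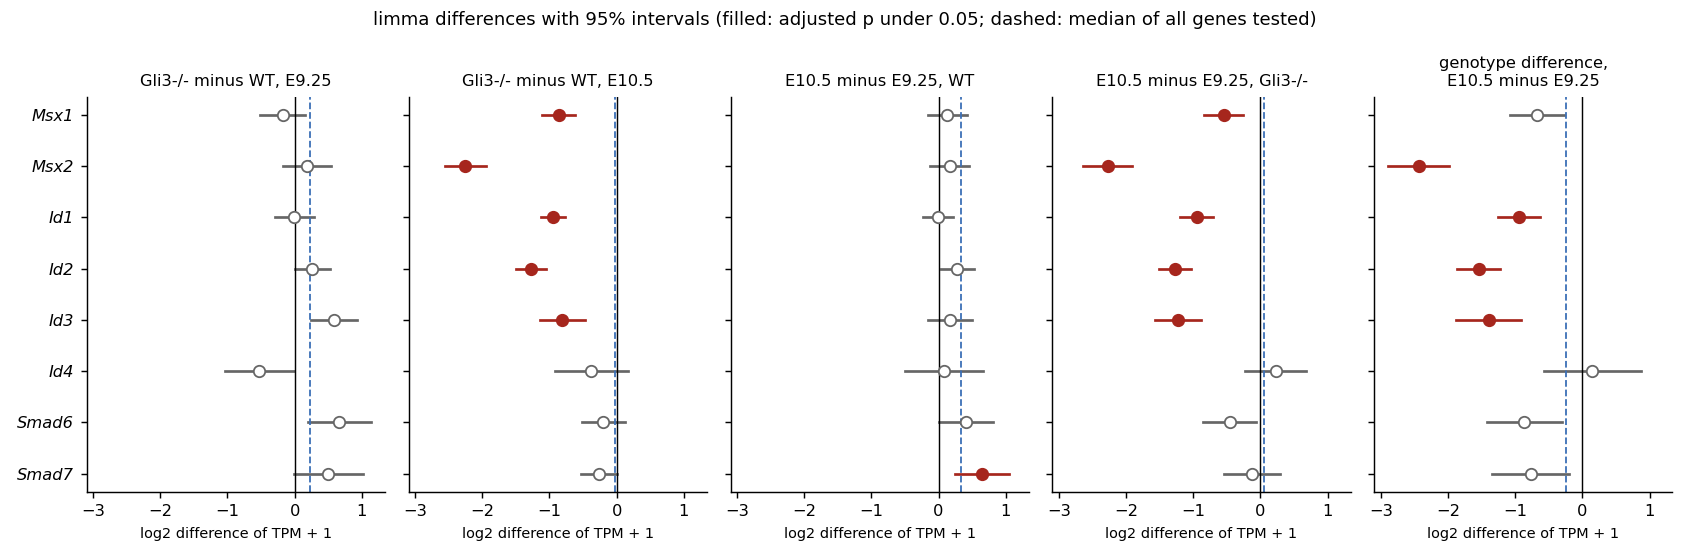
Each panel plots 1 comparison, with the log2 difference of TPM + 1 on the horizontal axis, a point per gene, its 95% interval as a line, and the median of all genes tested as a dashed line. Filled points passed the limma test, and 5 genes did so as lower at E10.5, none at E9.25.

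Summed over the family, *Id* transcripts were at 459 to 569 TPM in E10.5 WT libraries and at 223 to 267 TPM in E10.5 *Gli3*-/- libraries. The make-up of the family moved less than its level. *Id1* held 34.5 ± 1.24% of the sum in WT and 36.7 ± 0.931% in *Gli3*-/-, *Id2* held 41.2 ± 3.05% and 34.7 ± 2.64%, and *Id3* held 23.8 ± 2.45% and 27.9 ± 2.95% (SD, n = 4 and n = 3). *Id2* had the largest share of the *Id* sum in each E10.5 WT library and *Id1* in 2 of the 3 E10.5 *Gli3*-/- libraries. The inhibitory SMADs summed to 27.9 to 37.4 TPM in WT and 26.7 to 33.5 TPM in *Gli3*-/-.

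**Figure D3:**
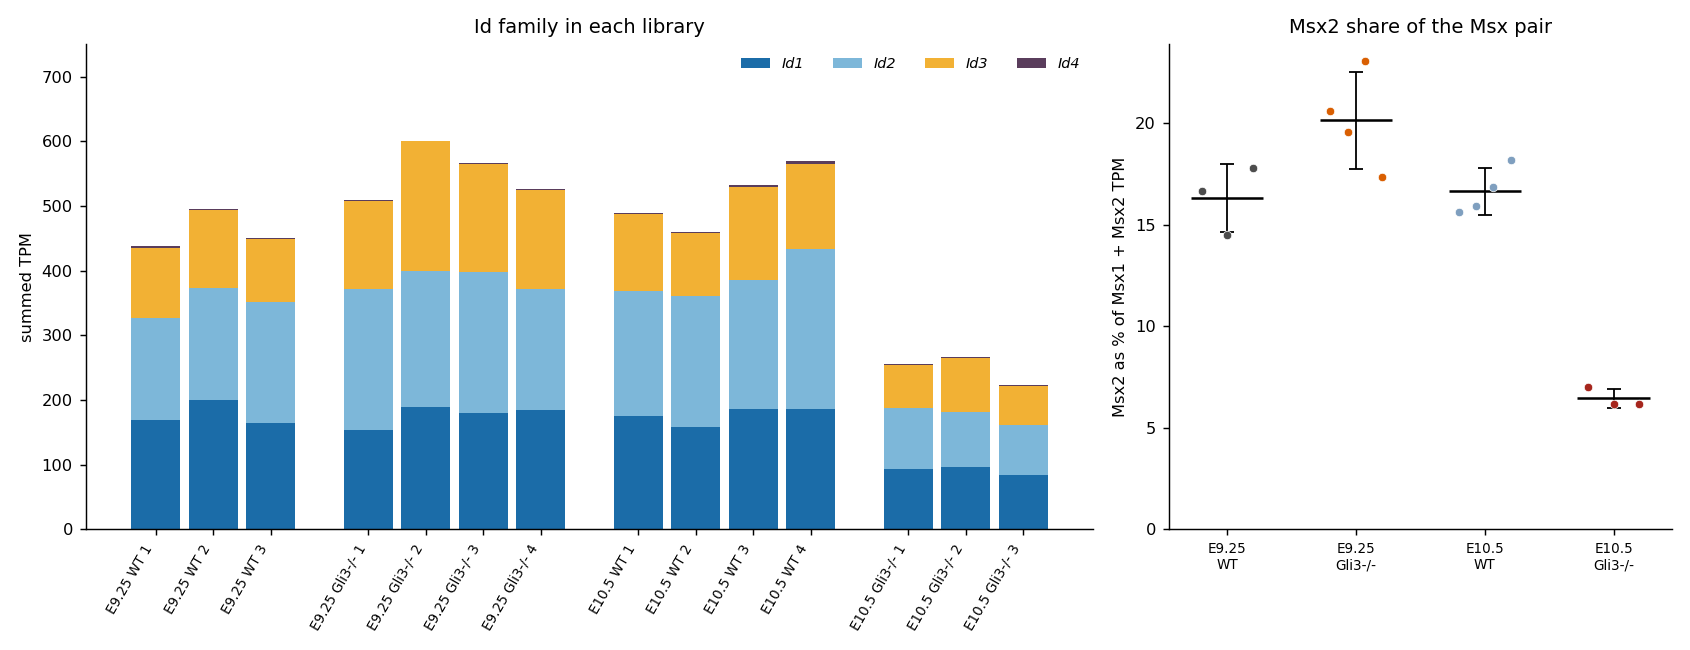
The left panel stacks the TPM of the 4 *Id* genes (vertical axis) for each of the 14 libraries, and the right panel plots *Msx2* as a percentage of summed *Msx* TPM for each library, with group mean and SD. The *Id* sum is lowest in the 3 E10.5 *Gli3*-/- libraries (223 to 267 TPM), where *Msx2* is also the smallest share of the pair (a mean of 6.45%).

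In these bulk pools, fewer expressing cells and less RNA per cell cannot be told apart. Marker genes also differed between the E10.5 genotypes. Of the 5 limb mesenchyme markers, *Prrx1* (-0.56), *Prrx2* (-0.48) and *Twist1* (-0.65) were lower and *Fgf10* (1.05) was higher in *Gli3*-/- on the log2 scale, and the 5 summed to 666 to 798 TPM in WT and 531 to 579 TPM in *Gli3*-/-. The 6 ectoderm and apical ridge markers summed to 160 to 187 TPM in WT and 240 to 272 TPM in *Gli3*-/-, with *Fgf8*, the ridge's main growth factor, the only marker of the 6 to pass (log2 difference 1.36). Without *Fgf8* the sum was 90.6 to 129 TPM in WT and 91.1 to 109 TPM in *Gli3*-/-. *Sp8* (-0.38), *Trp63* (-0.38), *Wnt7a* (-0.30) and *Krt18* (-0.24) had negative differences that did not pass. *Epcam* went the other way, at 34.9 to 44.7 TPM in WT and 40.3 to 46.3 TPM in *Gli3*-/-, and did not pass. The 6 endothelium markers summed to 83.4 to 99.8 TPM and 87.6 to 105 TPM, and none passed. Of the 3 markers of somites and their derivatives *Pax1* alone was lower (-4.23), and *Meox1* and *Tcf15* overlapped between the genotypes and did not pass. The 6 red blood cell markers took 11421 to 15830 TPM in WT and 13550 to 38221 TPM in *Gli3*-/-, highest in replicate 3, and none passed. The part of these differences in the results for the *Msx* and *Id* genes was not tested.

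At E9.25, before HH signalling, none of the 8 genes passed the test between *Gli3*-/- and WT whole buds with limma, and few genes passed at all (0.136% of 14760). At an unadjusted p under 0.05, 3 of the 8 differed (*Id3* and *Smad6* higher, *Id4* lower), against 22% of all genes tested. These 3 of 8 were also the genes whose libraries did not overlap between the genotypes, against 13.3% of all genes tested. The median gene tested was itself 0.23 higher in *Gli3*-/- on the log2 scale, a shift that was 0.14 with E9.25 WT replicate 2 left out and 0.00029 with quantile normalization. Without that library 2 of the 8 genes had an unadjusted p under 0.05, as did 1621 of 14690 genes tested.

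*Id3* was at 108, 120.4 and 96.4 TPM in WT and at 135, 201, 167 and 153 TPM in *Gli3*-/-. The log2 difference was 0.59 (interval 0.24 to 0.93, limma adjusted p = 0.189), or 0.36 above the median gene. *Smad6* was at 13.4, 8.87 and 12.6 TPM in WT and at 16.4, 24.1, 20.9 and 15.0 TPM in *Gli3*-/-. Its log2 difference was 0.67 (interval 0.19 to 1.14, limma adjusted p = 0.217), or 0.44 above the median gene. When the library labelled E9.25 WT replicate 2 was left out, the log2 differences were 0.66 for *Id3* (limma adjusted p = 0.291) and 0.50 for *Smad6* (adjusted p = 0.433), or 0.52 and 0.36 above the median gene. *Id3* and *Smad6* passed in 1 of the alternatives, the model of all 14 libraries, with limma adjusted p of 0.0454 and 0.0466, and over all alternatives their adjusted p ran from there to 0.450 and 0.478. That model called 8.03% of all genes tested, 1039 higher and 146 lower, where the fit of the E9.25 libraries called 0.136%.

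*Smad7* moved with *Smad6* from library to library but its groups overlapped, at 15.3, 9.86 and 10.8 TPM in WT and 12.5, 23.1, 18.4 and 15.9 TPM in *Gli3*-/- (log2 difference 0.50, interval -0.01 to 1.01, limma adjusted p = 0.230). *Id4* was at 2.57, 2.34 and 2.03 TPM in WT and 1.77, 0.685, 1.21 and 1.72 TPM in *Gli3*-/- (log2 difference -0.52, interval -1.03 to -0.01, limma adjusted p = 0.223). *Msx1* was at 185, 199 and 158 TPM in WT and 128, 183, 162 and 167 TPM in *Gli3*-/-, and *Msx2* at 37.1, 33.8 and 34.1 TPM and 33.3, 44.5, 48.6 and 35.1 TPM. The groups overlapped for both *Msx* genes, with log2 differences of -0.18 (interval -0.51 to 0.15) and 0.18 (interval -0.18 to 0.55). *Id1* was at 169, 199.6 and 164 TPM in WT and 153, 189, 181 and 185 TPM in *Gli3*-/-, a log2 difference of -0.01 (interval -0.29 to 0.28). *Id2* was at 158, 174 and 188 TPM in WT and 219, 210.0, 217 and 187 TPM in *Gli3*-/-, where the highest WT library just exceeded the lowest *Gli3*-/- library (log2 difference 0.26, interval -0.00133 to 0.53). With E9.25 WT replicate 2 left out the log2 differences were 0.38 for *Smad7*, -0.52 for *Id4*, -0.11 for *Msx1*, 0.16 for *Msx2*, 0.081 for *Id1* and 0.27 for *Id2*, and none passed. The sign of *Id1* turned.

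Markers of neighbouring tissue moved in the same E9.25 libraries. The 6 flank and lateral plate mesoderm markers summed to 13.2 to 32.3 TPM in WT and 61.1 to 139 TPM in *Gli3*-/-, none was at 0 in any of these libraries, and 4 of the 6 passed as higher in *Gli3*-/-. The 6 endothelium markers, a tissue in which *Smad6* and *Id3* are also expressed, summed to 59.3 to 94.9 TPM in WT and 108 to 157 TPM in *Gli3*-/-, with 6 of 6 differences positive and 0 past the adjusted threshold. With E9.25 WT replicate 2 left out, 3 of the 6 flank markers passed and 0 of the 6 endothelium markers, and 6 of 6 differences were positive in each list. Of the 6 endothelium differences, 5 were positive with quantile normalization, with median-of-ratios size factors and without E9.25 WT replicate 3. In the last of these settings 0 of the 6 flank markers passed. *Gli3*-/- replicate 2, which had the highest endothelium sum, was also highest for *Id3*, *Smad6* and *Smad7*. The same library had the highest limb mesenchyme marker sum at E9.25 as well (760 TPM, other E9.25 libraries 518 to 675 TPM). Other marker lists differed at E9.25 as well, and none of their tested markers passed. Ectoderm and ridge markers without *Fgf8* summed to 77.9 to 135 TPM in WT and 142 to 217 TPM in *Gli3*-/-. Of these, *Krt18* alone did not overlap. *Fgf8* was lower, at 40.3 to 71.1 TPM and 17.6 to 36.6 TPM. The 3 muscle progenitor markers summed to 2.22 to 3.72 TPM in WT and 0.329 to 1.27 TPM in *Gli3*-/-. Sums of the remaining lists overlapped. The part of these tissues in the values of *Id3*, *Smad6* and *Smad7* was not tested.

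**Figure D4:**
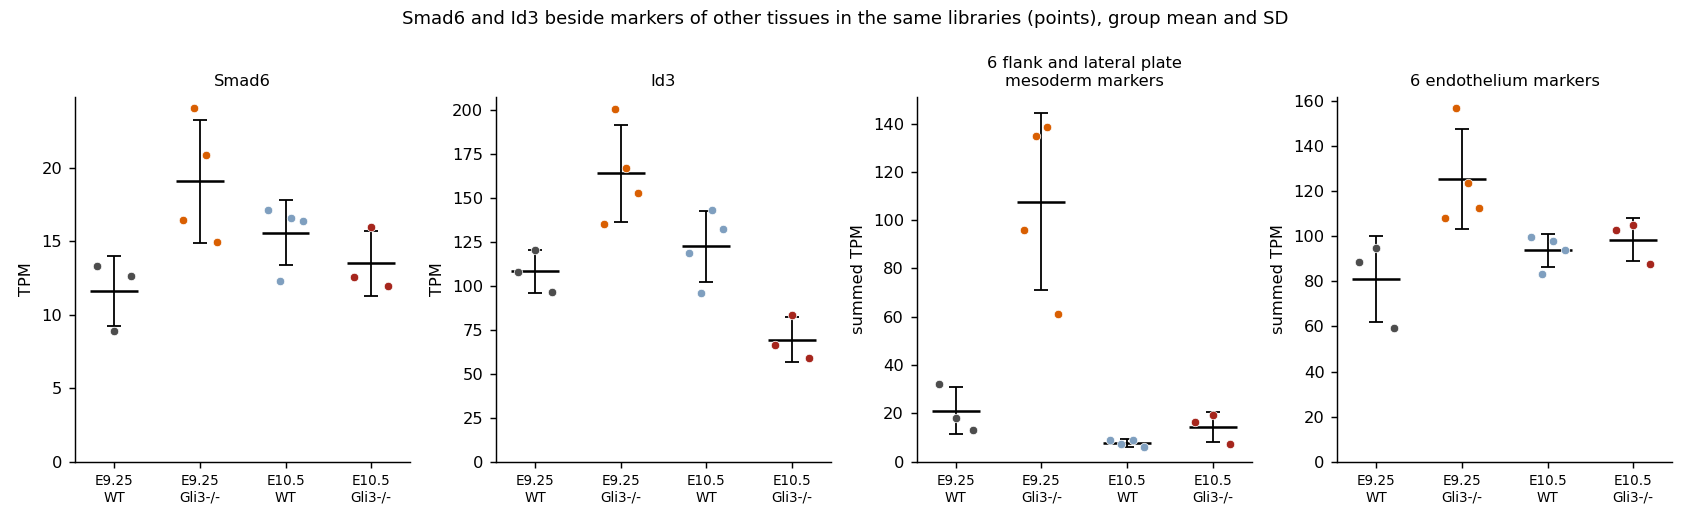
The panels plot *Smad6* and *Id3* (TPM) and the summed TPM of 6 flank and lateral plate mesoderm markers and 6 endothelium markers for the 14 libraries (points) in the 4 groups, with the group mean and SD. In E9.25 *Gli3*-/- libraries all 4 panels lie above E9.25 WT without overlap, and flank markers there reach 61.1 to 139 TPM against 5.92 to 19.4 TPM at E10.5.

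Whether the *Gli3*-/- effect differed between the stages was tested by the interaction over all 14 libraries, as the log2 difference between genotypes at E10.5 minus that at E9.25. *Msx2*, *Id1*, *Id2* and *Id3* passed, 4 of the 8 genes, in each case towards lower expression in E10.5 *Gli3*-/- buds, against 1.65% of 16368 genes tested that passed as lower. The interaction was -2.44 for *Msx2* (standard error 0.21, limma adjusted p = 0.000104), -1.55 for *Id2* (0.15, adjusted p = 0.000176), -1.39 for *Id3* (0.23, adjusted p = 0.00477) and -0.94 for *Id1* (0.14, adjusted p = 0.00326). By unadjusted p, *Msx2* ranked 2 and *Id2* ranked 4 among all genes tested. *Id3* combined a fall at E10.5 with a higher value at E9.25, whereas *Id1* differed little at E9.25. *Msx1* (-0.68, adjusted p = 0.0806), *Smad6* (-0.86, adjusted p = 0.105), *Smad7* (-0.77, adjusted p = 0.150) and *Id4* (0.15, adjusted p = 0.804) did not pass. The median gene had an interaction of -0.24, which is part of each value. The same 4 genes passed when the library labelled E9.25 WT replicate 2 was left out, at -2.41, -1.55, -1.47 and -1.03 for *Msx2*, *Id2*, *Id3* and *Id1*. The *Id1* call was lost with median-of-ratios size factors (-0.65, limma adjusted p = 0.0642, with a range of 0.000294 to 0.0642 over all alternatives).

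Between the stages in WT, with the dissection changed as well, 1 of the 8 genes passed, *Smad7*, where 48.7% of 15444 genes tested passed in either direction. *Smad7* was 0.65 higher at E10.5 (standard error 0.17, limma adjusted p = 0.0163, and 0.53, adjusted p = 0.0322, with E9.25 WT replicate 2 left out), in a comparison in which the median gene was 0.34 higher. The *Smad7* call was lost with quantile normalization (0.24, adjusted p = 0.189) and with median-of-ratios size factors (0.30, adjusted p = 0.0954), and its adjusted p ran from 0.00289 to 0.189 over all alternatives. *Id1* had the smallest difference (-0.01, interval -0.23 to 0.22), and the other 6 genes lay between 0.08 and 0.40, with signs that turned for some of them under these scalings. In *Gli3*-/- buds 5 of the 8 genes were lower at E10.5 than at E9.25, against 9.17% of 15434 genes tested. These were *Msx2* (-2.27), *Id2* (-1.27), *Id3* (-1.23), *Id1* (-0.95) and *Msx1* (-0.55), with limma adjusted p between 7.56e-06 and 0.0122. The *Msx1* call was lost without E10.5 *Gli3*-/- replicate 2 (-0.52, limma adjusted p = 0.0587) and without E10.5 *Gli3*-/- replicate 3 (-0.50, limma adjusted p = 0.0606). *Smad6* (-0.46, adjusted p = 0.0896), *Smad7* (-0.12, adjusted p = 0.683) and *Id4* (0.23, adjusted p = 0.456) did not pass. *Smad6* was called lower in 5 of 18 alternatives, among them quantile normalization (-0.56, limma adjusted p = 0.0133) and size factors (-0.53, adjusted p = 0.0188), and its adjusted p ran up to 0.2601. The stage and genotype comparisons share libraries, so that they are not separate evidence on the E10.5 *Gli3*-/- values.

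The rest of the pathway was counted in 7 lists of 43 genes. Between genotypes at E10.5, 36 of the 43 were tested, 4 passed as higher and 5 as lower, against 1.84% and 2.93% of all genes tested, and the median log2 difference was -0.0015. Calls of *Gdf5* held in 6 of 17 alternatives and of *Rgmb* in 8 of 18. Among the BMP ligands *Bmp2* was higher (0.95, limma adjusted p = 0.00998), at 1.38 to 1.96 TPM in WT and 3.14 to 4.87 TPM in *Gli3*-/-, and *Gdf6* (-2.04, adjusted p = 0.000287) and *Gdf5* (-0.71, adjusted p = 0.0434) were lower. *Bmp4*, the most abundant ligand, was at 34.7 to 46.8 TPM in WT and 39.7 to 52.3 TPM in *Gli3*-/-, and *Bmp7* at 28.5 to 36.3 TPM and 34.3 to 37.5 TPM, and neither passed. Their log2 differences were 0.15 (interval -0.12 to 0.42) and 0.10 (interval -0.10 to 0.31). These intervals are for RNA of the whole pool. The part of the ligands in the results for the *Msx* and *Id* genes was not tested. Among the secreted modulators *Grem1*, an antagonist of BMP2, BMP4 and BMP7, was higher in *Gli3*-/- (1.19, adjusted p = 0.00626), at 14.8, 25.8, 15.1 and 16.8 TPM in WT and 40.4, 37.3 and 47.3 TPM in *Gli3*-/-. *Nog*, another antagonist, was at 0.873 to 1.38 TPM in WT and 0.168 to 0.696 TPM in *Gli3*-/- and was below the filter for this test.

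Among the 8 receptors and co-receptors *Bmpr1b*, a type I receptor of the condensing limb skeleton, was lower (-0.83, limma adjusted p = 0.020) and the co-receptor *Rgmb* was higher (0.64, adjusted p = 0.0341). None of the 3 tested SMAD transducers, 5 genes of SMAD turnover and corepression, and 3 E protein partners of the ID proteins passed at E10.5. The unadjusted p was under 0.05 for 1 of these 11 genes. Of the 8 other response genes, *Tbx2* (-1.59, adjusted p = 0.00998) and *Dlx5* (-0.69, adjusted p = 0.0122) were lower and *Hey1* was higher (1.20, adjusted p = 0.00136). *Tbx2* was at 8.18 to 18.6 TPM in WT and 2.65 to 5.24 TPM in *Gli3*-/-. *Hey1*, which also responds to Notch, was at 17.7 to 22.3 TPM and 37.8 to 54.5 TPM. Of the differences of these 8 listed response genes, 1 was positive, that of *Hey1*. Their median log2 difference was -0.22, against -0.02 over all genes tested.

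**Figure D5:**
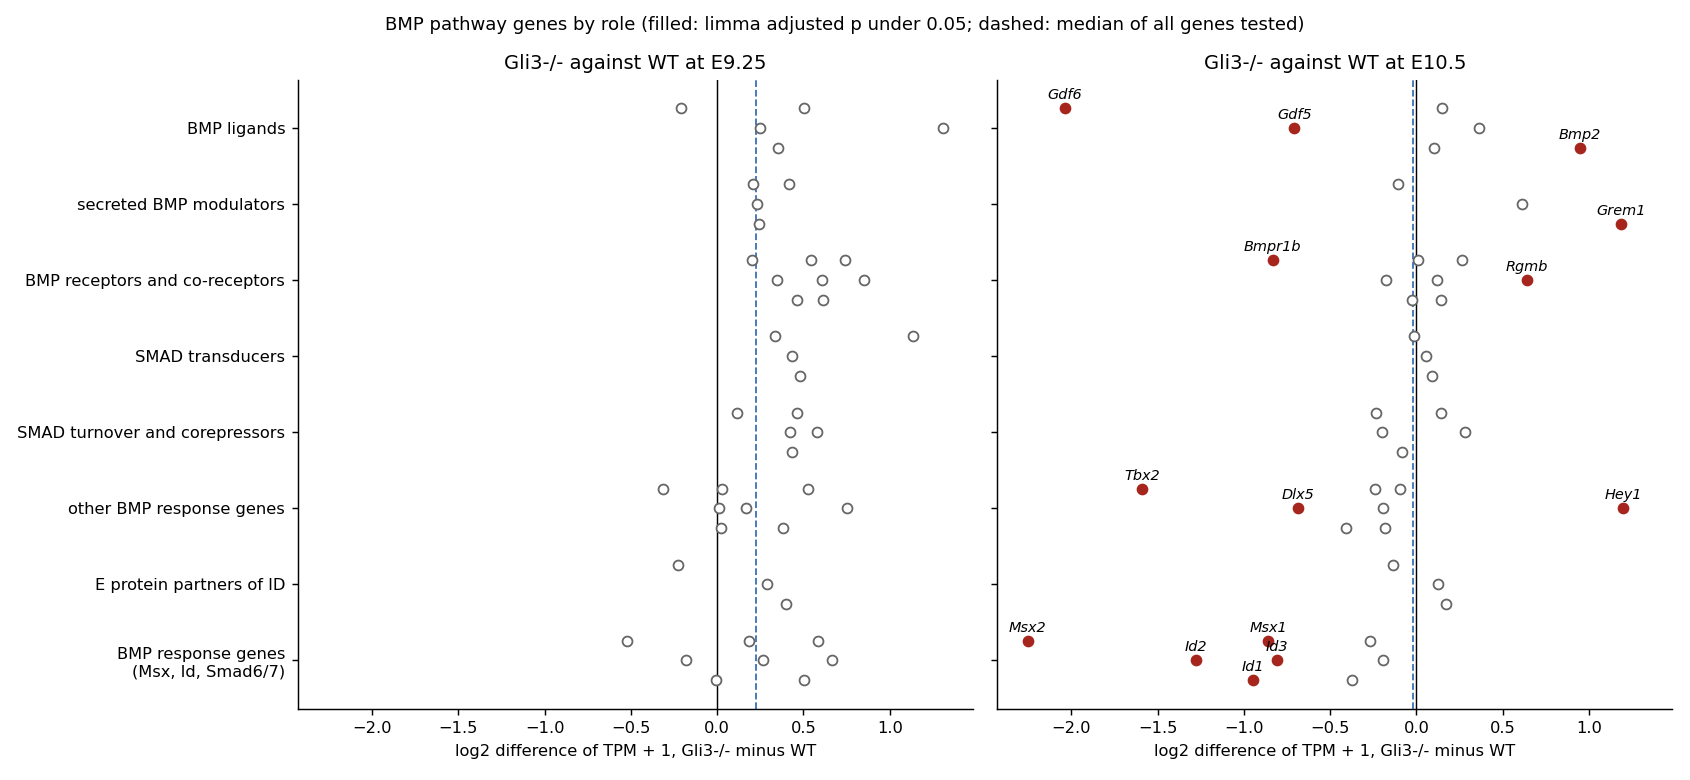
Each point is 1 gene, placed by its log2 difference of TPM + 1 between *Gli3*-/- and WT (horizontal axis) and its role (rows), at E9.25 (left) and E10.5 (right), and filled points passed the limma test. No listed gene passed at E9.25, and at E10.5 the *Msx* and *Id* genes that passed lie between -0.81 and -2.25.

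At E9.25, 37 of the 43 pathway genes were tested and 0 passed with limma. At an unadjusted p under 0.05 were 12 of the 37, against 22% of all genes tested. Of these 37 differences 34 were positive, with a median of 0.40 against 0.23 over all genes tested. With E9.25 WT replicate 2 left out, 29 of 37 were positive, and the median was 0.25 against 0.14 over all genes tested. In that fit 4 of the 37 had an unadjusted p under 0.05, as did 1621 of 14690 genes tested. With quantile normalization 26 of 37 were positive. *Bmp4* was at 39.9 to 49.6 TPM in WT and 41.9 to 66.8 TPM in *Gli3*-/-, *Bmp7* at 25.3 to 30.1 TPM and 17.0 to 28.3 TPM, *Bmp2* at 1.80 to 4.29 TPM and 3.00 to 4.44 TPM, *Grem1* at 1.98 to 2.57 TPM and 1.87 to 3.90 TPM, and *Nog* at 0.706 to 1.33 TPM and 0.710 to 1.86 TPM. All 5 overlapped between the genotypes. The interaction passed as lower for *Gdf6* (-2.54), *Tbx2* (-2.12), *Smad9* (-1.71) and *Bmpr1b* (-1.18) and as higher for *Hey1* (1.18), where 1.65% of all genes tested passed as lower and 0.477% as higher. With E9.25 WT replicate 2 left out it passed for *Gdf6* (-2.30) and *Tbx2* (-2.07) and for no other listed gene. In WT, 21 of 37 pathway genes were higher and 2 lower at E10.5 than at E9.25, against 38.1% and 10.6% of all genes tested. The balance moved with the scaling, to 16 higher and 8 lower with quantile normalization, where 2668 of all genes were higher and 3050 lower. With size factors it was 14 and 6, where 3073 of all genes were higher and 3334 lower. With E9.25 WT replicate 2 left out, 19 were higher and 4 lower, and over all genes 5148 and 1479. The 10 with the smallest limma adjusted p were *Bambi*, a decoy receptor that is itself a BMP response gene (-1.34), and, all higher at E10.5, *Grem1* (2.54), *Chrdl1* (2.16), *Tcf4* (1.72), *Rgma* (1.504), *Tob1* (1.33), *Gdf5* (1.30), *Bmpr1b* (1.29), *Twsg1* (1.02) and *Hey1* (0.91). All 10 kept their direction in every alternative that tested them, and *Hey1* alone of them lost its call in 1, quantile normalization (limma adjusted p = 0.0508). In *Gli3*-/-, 14 of 37 were higher and 9 lower, against 15.8% and 9.17% of all genes tested. The 10 with the smallest adjusted p there were *Grem1* (3.52), *Chrdl1* (2.53), *Hey1* (2.09), *Tcf4* (1.60) and *Rgmb* (1.35), all higher at E10.5, and *Smad9* (-2.22), *Bmp5* (-2.20), *Tbx2* (-1.67), *Bambi* (-1.54) and *Tbx3* (-1.45), all lower.

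Across the 14 libraries the 8 genes did not form 1 pattern. Pearson's r of log2(TPM + 1) over the 28 pairs ran from -0.30 to 0.97 with a median of 0.36, and 8 pairs were over 0.8. The highest were *Msx2* with *Id1* (0.97), *Msx2* with *Id2* (0.96) and *Id1* with *Id2* (0.92), and these follow the low values of the 3 E10.5 *Gli3*-/- libraries. After the group means were removed, r was 0.50 for *Msx2* with *Id1*, 0.30 for *Msx2* with *Id2* and 0.09 for *Id1* with *Id2*, while *Id1* with *Id3* (0.85) and *Smad6* with *Smad7* (0.82) stayed high. The TPM values of a library share its scaling, and these are descriptions of 14 pools.

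The genes most like each member over the 14 libraries, among about 11080 genes that reached a TPM of 5 in 7 or more libraries, were *Id1* (0.97) and *Hoxc6* (0.97) for *Msx2*, *Hoxc6* (0.97) and *Msx2* (0.97) for *Id1*, and *Msx2* (0.96) and *Hoxc6* (0.92) for *Id2*. *Msx1* was most like *Irx5* (0.91) and *Hoxc6* (0.90), both homeobox genes, so that *Hoxc6* was among the nearest for 4 of the 8. *Id3* was most like *Tgfb2* (0.95) and *Sfrp1* (0.94), a TGF-beta ligand and a secreted WNT modulator. *Smad6* was most like *Zfp109* (0.95) and *Dapk1* (0.94), and *Smad7* like *Atp6v0a2* (0.98) and *Ift140* (0.98). *Id4* had no gene over 0.9, its nearest being *Hibch* (0.80) and *Trim13* (0.78). The number of genes over 0.9 was 1 for *Msx1*, 15 for *Msx2*, 9 for *Id1*, 6 for *Id2*, 8 for *Id3*, 31 for *Smad6* and 213 for *Smad7*.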

How the data were processed

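Forelimb buds were lysed in TRIzol, libraries were made with NEBNext Ultra II kits, and single reads of 100 bases were aligned by the authors with HISAT2; the submitters' notes list the mm10 genome. The authors deposited 1 table per library with the coverage, FPKM and TPM of each gene ID. The program that made these deposited TPM values, its gene annotation and whether it used strand are not given in the sources used here. No read counts were used, so no count test was run. Coverage and FPKM served here to estimate depth.

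Values of gene IDs listed on more than 1 line were summed, and log2(TPM + 1) was fitted in limma 3.58.1 under R 4.3.3, and eBayes with a trend gave two-sided p-values, with Benjamini-Hochberg adjustment over all genes passing the filter (a TPM of 1 in 3 libraries) and a threshold of 0.05. Fold changes on this scale understate changes of low genes. The fit used the groups compared, and all 14 libraries for the interaction of stage and genotype. The procedure was run on simulated data with independent noise for each gene and library. Such data lack shifts that the genes of a library share. The labels do not say that replicates share embryos or days, and the p-values measure the spread between these pools.

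The 8 genes and the gene lists were chosen with earlier results of these data known. All 8 are named with their values. Of the pathway lists, genes past the threshold are named, up to 10 per comparison by adjusted p, with *Bmp2*, *Bmp4*, *Bmp7*, *Grem1* and *Nog* given in any case; other names, and the marker genes, were chosen after their values were seen. The 2 genes with the highest Pearson r to each member are named as most alike. Promoter windows are from RefSeq (GRCm38.p6). Gene spans in the tables overlapped the RefSeq gene of the same symbol for 99.8% of 33122 gene IDs. Python 3.11.15, pandas 2.3.3, NumPy 2.4.6 and matplotlib 3.10.9 were used. Other data types of the series were not used here.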

Additional observations from a re-analysis of the deposited data

Results flagged for a closer look

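The difference of the *Gli3*-/- effect between E10.5 and E9.25, tested as an interaction with limma over 14 libraries, passed for 4 of the 8 genes. Its log2 value was -2.44 for *Msx2*, -1.55 for *Id2*, -1.39 for *Id3* and -0.94 for *Id1*. Among the other pathway genes it passed for *Gdf6* (-2.54), *Tbx2* (-2.12), *Smad9* (-1.71), *Bmpr1b* (-1.18) and *Hey1* (1.18), of which *Smad9*, *Bmpr1b* and *Hey1* did not pass with E9.25 WT replicate 2 left out.

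Single libraries stood apart from their group for 8 of 92 combinations of a gene and a group of 4 libraries, where chance gives about 1 in 20. E10.5 WT replicate 2 was low for *Msx2* (31.8 TPM, others 41.5 to 43.3), *Smad6* (12.3 TPM, others 16.4 to 17.2) and *Acvr1* (11.8 TPM, others 15.8 to 16.6). E10.5 WT replicate 4 was high for *Smurf2* (63.9 TPM, others 52.6 to 52.9), *Skil* (36.4 TPM, others 26.3 to 26.9), *Gdf5* (2.02 TPM, others 1.28 to 1.33) and *Nog* (1.38 TPM, others 0.873 to 0.924). E9.25 *Gli3*-/- replicate 2 was high for *Gata2* (4.05 TPM, others 2.52 to 2.62). The combinations are not independent, since the genes of a library share its tissue and scaling.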

How the results depend on the processing

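Over the 8 genes, 5 comparisons and all alternatives, 692 of 747 values kept their direction and their side of the threshold, 10 lost a call, 23 gained one and 22 changed sign. The calls of *Msx1*, *Msx2*, *Id1* and *Id2* at E10.5 held in every alternative, with limma adjusted p up to 0.0273. The *Id3* call at E10.5 was also lost without the filter (adjusted p = 0.0775). With the title number as a replicate block it was lost as well (-0.77, adjusted p = 0.191), and the number of genes called fell from 747 to 164. Same-numbered libraries did not deviate together in every pair (r of -0.180 to 0.153 by title number), the labels give no shared embryo or day, and a block is therefore no test of pairing. By the numbers in the deposited tables, which run from 2 to 4 for E10.5 *Gli3*-/- (r of 0.052 to 0.316), 498 genes were called.

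Signs changed only for differences that did not pass. At E9.25 these were *Msx2* with quantile normalization (-0.026) and size factors (-0.060), and *Id1* with sample quality weights (0.087) and with a library left out (-0.060 to 0.081 over 7). Between stages in WT they were *Msx2* (-0.064), *Id1* (0.057), *Id4* (-0.46) and *Smad6* (-0.023) with quantile normalization, *Msx1* (-0.23), *Msx2* (-0.19), *Id2* (-0.085), *Id3* (-0.20) and *Id4* (-0.19) with size factors, *Id1* (0.073) with quality weights, *Id4* (-0.090) with the replicate block, and with a library left out *Id1* (-0.062 to 0.079) and *Id4* (-0.090 to 0.29). Between stages in *Gli3*-/- it was *Smad7* with a library left out (-0.26 to 0.017), and for the interaction *Id4* with quality weights (-0.089) and with a library left out (-0.063 to 0.32). The cause was not tested.

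At E9.25, 2 of the 8 genes were called higher in 1 model of all 14 libraries and 0 in every other alternative. Between stages in WT the number called higher was 0 with size factors, 3 with quality weights or a threshold of 0.1, 2 in 1 model of all libraries and 1 to 2 with a library left out. The interaction of *Id1* lost its call with size factors (-0.65, adjusted p = 0.0642). Over all genes, calls numbered 20 (0 to 1185 over the alternatives) at E9.25, 747 (164 to 1356) at E10.5, 7520 (4699 to 9289) and 3853 (2129 to 6520) between stages in WT and *Gli3*-/-, and 348 (138 to 1433) for the interaction. Between stages in WT 5885 genes were higher and 1635 lower, but 2668 and 3050 with quantile normalization, and for the interaction 78 and 270, but 164 and 181. Depth limits *Id4* most, at 14.3 to 96.6 reads per kilobase.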
